A study of Mus musculus with 5 samples.

Results

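The mouse genes Agbl3, Aplf, Abca4, Srpk2 and Olfml3 were followed in promoter capture Hi-C of the supporting cells of the embryonic gonad. They were picked from the readout itself, because their promoters had many more called contacts in pre-granulosa than in Sertoli cells or, for Olfml3, a contact with a very large score difference in that direction. Their contacts were all listed cis interactions, meaning those within a chromosome, that carried the gene's symbol at either end. That rule gave 68 of 29421 cis interactions in a table built on single restriction fragments as baits (the original baits) and 69 of 51524 in a table built on baits widened to bins of about 5 kb (the extended baits). They came from 7 of 7915 original baits and 6 of 11452 extended baits, for 5 of the 5784 genes that had an original bait. No interaction between chromosomes was listed for any of them.

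The Sertoli cells, the supporting cells of the testis, carried Sox9IRES-GFP, and the pre-granulosa cells, their ovarian counterparts, carried Enh8-mCherry. Both came from E13.5 embryos, with 3 Sertoli and 2 pre-granulosa libraries of about 100000 sorted cells each. The groups thus rest on reporter sorting, and the labels used here name no further allele, strain or agent. Each table gave 1 score per interaction for Sertoli and 1 for pre-granulosa, with the libraries of a cell type pooled, so the values have no replicate error and no difference could be tested. The score rises as an interaction exceeds what its distance and bait would give by chance, and a score of 5 or more was counted as a call. Every listed interaction reached that score in Sertoli, in pre-granulosa or in both. Read depth is unknown, and the identity of the sorted cells could not be checked, since the tables hold contacts and no expression.

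Promoter contacts arise when chromatin folds so that a promoter and a distant stretch of DNA are crosslinked and ligated together. Such contacts can bring a promoter to an enhancer, but they also form along the body of a gene and within a topological domain without any regulatory role being known. The genes belong to different families. Agbl3 encodes a cytosolic carboxypeptidase that trims glutamates from proteins such as tubulin, and Aplf encodes a scaffold protein of DNA end joining. Abca4 encodes the photoreceptor transporter that flips retinoid conjugates across disc membranes, Srpk2 a kinase of SR splicing factors, and Olfml3 a secreted protein with an olfactomedin domain.

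The bait sequence is what the assay pulled down, so the RefSeq promoter of a start that lies in a bait is shown for each gene. All 250 bases lie in the bait for Agbl3, Aplf, Abca4 and Srpk2, and the 110 bases nearest the start do for Olfml3. Each run holds the 250 bases before the annotated start on the strand of the gene, in GRCm38.p6 (the mm10 coordinates). They cover chr6:34780182-34780431 (plus strand) for Agbl3, chr6:87672162-87672411 (minus) for Aplf, chr3:122044210-122044459 (plus) for Abca4, chr5:23616572-23616821 (minus) for Srpk2 and chr3:103738002-103738251 (minus) for Olfml3. Capitals mark every match on either strand to GATC (the DpnII site), GGGCGG (the GC box), CCAAT (the box of that name), TATAAA (the TATA box), AGGTCA (the nuclear-receptor core) or TCTCGCGAGA. The last is the only palindrome of at least 10 bases in these 5 promoters, a stretch that reads the same on both strands, and was added after the sequences had been seen.
Agbl3: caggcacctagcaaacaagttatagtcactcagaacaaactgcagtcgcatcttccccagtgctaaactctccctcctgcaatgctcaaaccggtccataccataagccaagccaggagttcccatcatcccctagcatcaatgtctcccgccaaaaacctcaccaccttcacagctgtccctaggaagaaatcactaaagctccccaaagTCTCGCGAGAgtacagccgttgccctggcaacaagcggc
Aplf: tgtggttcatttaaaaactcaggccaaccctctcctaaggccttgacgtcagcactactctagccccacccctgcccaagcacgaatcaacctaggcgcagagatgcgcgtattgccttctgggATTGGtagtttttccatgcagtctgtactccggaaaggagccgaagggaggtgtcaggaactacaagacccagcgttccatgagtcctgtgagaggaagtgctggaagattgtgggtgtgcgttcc
Abca4: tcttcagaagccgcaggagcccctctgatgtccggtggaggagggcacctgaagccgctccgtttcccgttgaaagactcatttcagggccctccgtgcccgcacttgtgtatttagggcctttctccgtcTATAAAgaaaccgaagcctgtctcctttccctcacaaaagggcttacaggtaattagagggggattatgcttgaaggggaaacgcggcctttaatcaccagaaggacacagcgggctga
Srpk2: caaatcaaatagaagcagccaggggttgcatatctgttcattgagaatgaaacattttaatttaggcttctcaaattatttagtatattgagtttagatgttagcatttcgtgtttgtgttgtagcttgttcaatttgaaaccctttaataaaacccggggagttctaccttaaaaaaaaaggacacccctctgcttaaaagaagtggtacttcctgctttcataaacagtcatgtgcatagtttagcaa
Olfml3: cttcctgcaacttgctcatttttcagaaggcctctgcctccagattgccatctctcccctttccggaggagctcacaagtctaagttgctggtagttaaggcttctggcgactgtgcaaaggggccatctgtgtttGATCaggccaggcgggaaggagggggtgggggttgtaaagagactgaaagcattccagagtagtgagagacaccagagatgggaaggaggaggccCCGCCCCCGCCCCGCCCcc

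The 5 promoters shared none of these motifs. Agbl3 held TCTCGCGAGA 39 bases before its start, a sequence present in 0.39% of 32851 RefSeq promoters of the same length, of which 27.7% held some palindrome of at least 10 bases. Aplf held a CCAAT box on the opposite strand 126 bases before its start (33.8% of promoters hold one), and Abca4 held TATAAA 119 bases before its start (12.4%). Olfml3 held 3 adjoining GC boxes on the opposite strand within 19 bases of its start (32.7%) and, at the end of its bait, a DpnII site at 114 bases (41.9%). No promoter of the 5 held AGGTCA in this window (14.0% of all did). The GC content was 52.4% for Agbl3, 53.6% for Aplf, 54.4% for Abca4 and 57.6% for Olfml3, near the median of 52.4% over all promoters. Srpk2 stood apart at 34.8%, with none of the motifs. Its bait, chr5:23615922-23616895, lies inside the 181.3 kb gene at an alternative start, while the GC-rich start (81.6%, with 4 GC boxes) lies 59.6 kb upstream and in no listed bait. The listed contacts of Srpk2 as bait thus came from an internal start of the gene. A bait with no score of 5 would not be listed, so whether the upstream start was captured is unknown.

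In the original table the 5 genes had 60 contacts called in pre-granulosa and 20 in Sertoli, of 68 listed. Over all cis interactions of that table the call rates ran the other way, with 42% called in pre-granulosa and 79.5% in Sertoli. Of the 68 contacts, 48 were called in pre-granulosa only (20.5% of all interactions were), 8 in Sertoli only (58%) and 12 in both (21.5%). Because the genes were chosen on this difference, the counts describe the choice and support nothing further. The excess was not one of presence against absence: in 21 of the 48 pre-granulosa-only contacts the Sertoli score was at least 3, and in 5 it was under 1. Over the whole table, 47.2% of the pre-granulosa-only interactions reached that Sertoli score.

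**Figure D1:**
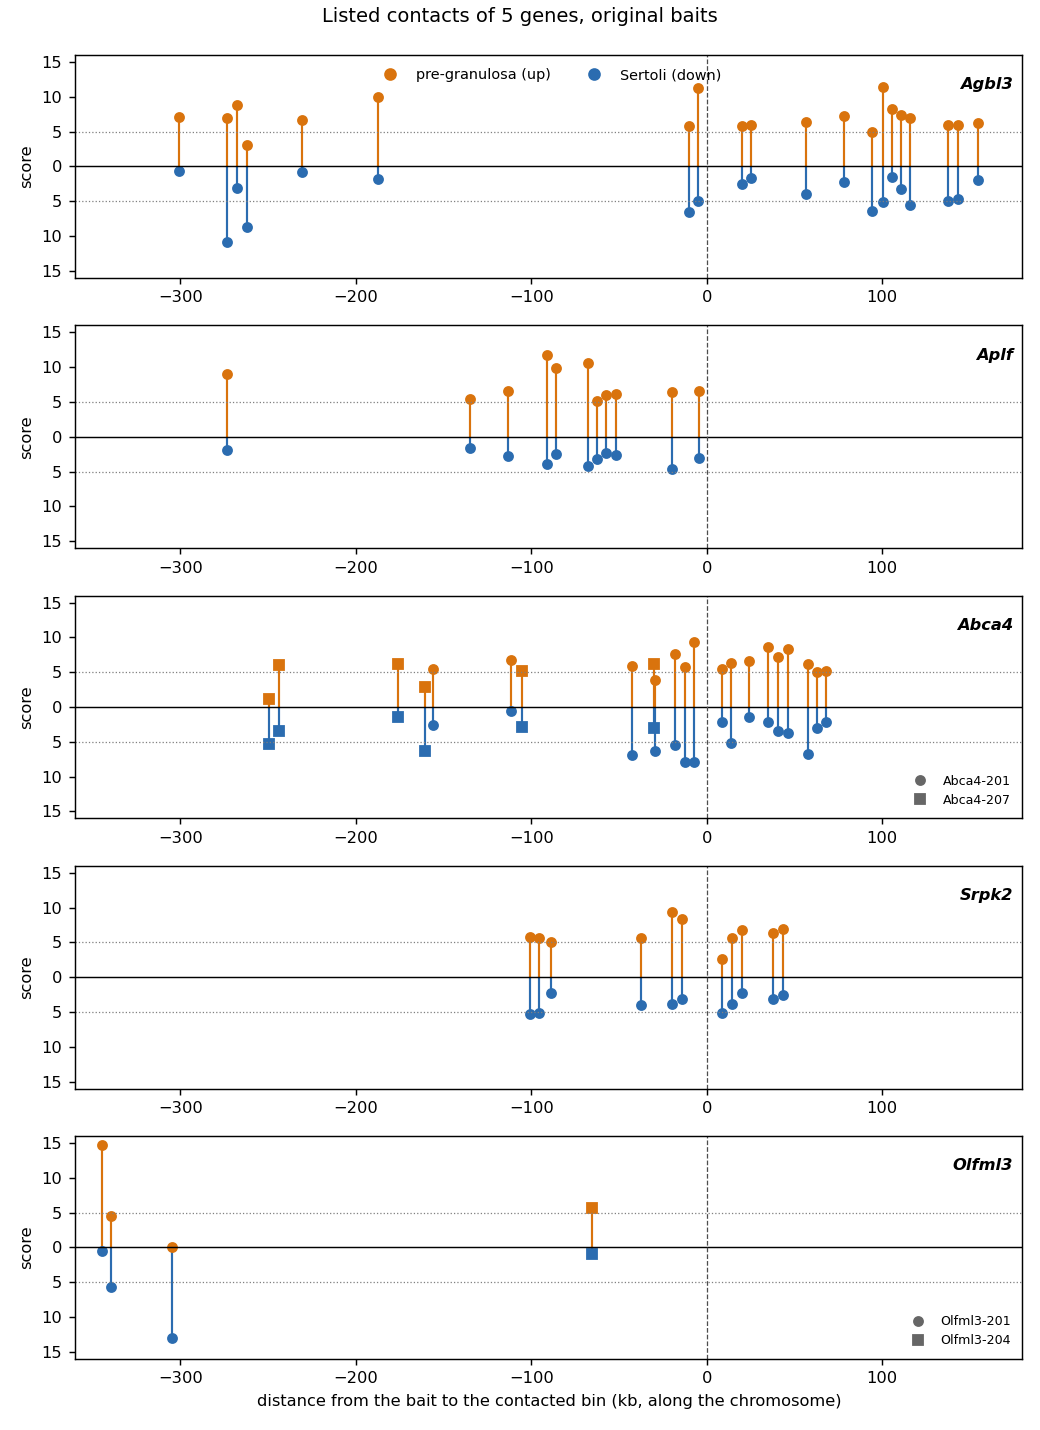
Scores of every listed contact of the original baits against distance from bait to contacted bin (kb along the chromosome, 1 panel per gene), with pre-granulosa scores upward and Sertoli scores downward and dotted lines at 5. For Aplf all 11 upward points pass the line and no downward point does, while Olfml3 has 1 tall upward point at 344.8 kb and 1 tall downward point at 304.9 kb.

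Agbl3, on chromosome 6, had 18 pre-granulosa and 6 Sertoli calls among 20 listed contacts of its bait at chr6:34779825-34781325. The median score was 6.81 in pre-granulosa and 3.63 in Sertoli, and the pre-granulosa score was higher in 16 of 20 (28.4% of all cis interactions had it higher). The contacts reached from 300.7 kb upstream to 154.5 kb downstream, and 4 of the 20 bins lay inside Agbl3. The longest unbroken stretch was 4 touching bins at chr6:34878481-34899094, 20.6 kb across Wdr91, which encodes an endosome protein. Along that stretch the pre-granulosa scores were 11.4, 8.20, 7.45 and 6.96, and the Sertoli scores were 5.05, 1.52, 3.30 and 5.55. All 4 bins thus passed in pre-granulosa and the outer 2 also passed in Sertoli.

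Beyond Wdr91, 3 Agbl3 contacts lay at or in Stra8, the retinoic acid-induced gene that germ cells need to enter meiosis. The bin 137.5 kb away, just before Stra8, scored 5.97 in pre-granulosa and 4.94 in Sertoli. The bin at 143.4 kb, in the gene, scored 5.91 and 4.62 in the same order, and that at 154.5 kb scored 6.19 and 1.94. All 3 were counted as pre-granulosa calls only, though 2 of the Sertoli scores were just under 5. Upstream, gene-free bins scored 9.93 in pre-granulosa against 1.75 in Sertoli at 187.6 kb and 6.65 against 0.80 at 230.8 kb. A bin in Bpgm, which encodes an enzyme of red-cell glycolysis, scored 7.10 against 0.64 at 300.7 kb. Other upstream bins that touch each other ran both ways. The bin at 273.5 kb scored 7.0 in pre-granulosa and 10.9 in Sertoli, the next at 267.7 kb 8.85 and 3.12, and the next at 262.1 kb 3.06 and 8.75.

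Aplf, also on chromosome 6, had 11 listed contacts from its bait at chr6:87670273-87672652, all called in pre-granulosa and none in Sertoli. Pre-granulosa scores ran from 5.11 to 11.7 and Sertoli scores from 1.66 to 4.60, a split that the choice of a gene without Sertoli calls fixes. Every Sertoli value was still above 0. All 11 bins lay on the downstream side of this minus-strand gene, at 4.49 to 273.2 kb, and 2 of them inside Aplf. The highest score was at 91.3 kb in Prokr1, a receptor gene for prokineticins, with 11.7 in pre-granulosa and 3.97 in Sertoli. The touching bin at 86.1 kb, also in Prokr1, scored 9.90 and 2.51. A run of 4 touching bins followed at chr6:87601249-87622582, 21.3 kb between Prokr1 and Aplf with no RefSeq gene, with 10.6, 5.11, 5.96 and 6.21 in pre-granulosa and 4.25, 3.19, 2.28 and 2.67 in Sertoli. The farthest bin, 273.2 kb away and gene-free, scored 9.01 and 1.94.

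Abca4, on chromosome 3, had 2 baits and 22 contacts, with 19 pre-granulosa and 9 Sertoli calls. The bait at its start, Abca4-201 (chr3:122044109-122045093), had 15 and 7 calls among 16 listed. The internal bait Abca4-207 (chr3:122131072-122133288) had 4 and 2 among 6. The contacts of Abca4-201 fell into a stretch before the gene and a stretch within it. The 3 touching bins before the start, chr3:122023957-122040174, were called in both cell types, with 7.62, 5.68 and 9.33 in pre-granulosa and 5.47, 7.92 and 7.92 in Sertoli. Inside the gene, 3 touching bins at 35.1 to 46.1 kb scored 8.59, 7.20 and 8.33 in pre-granulosa and 2.12, 3.49 and 3.67 in Sertoli. The near-start stretch thus showed no one-sided difference, and the difference lay in the gene body and at far upstream bins such as that at 111.6 kb, which scored 6.71 and 0.65.

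Arhgap29, which encodes a GTPase-activating protein, lies just upstream of Abca4 and supplied 4 of its contacted bins. Abca4-201 reached Arhgap29 at 42.5 kb with 5.92 in pre-granulosa and 6.97 in Sertoli, and at 29.5 kb with 3.81 and 6.38. Abca4-207 reached it at 176.1 kb with 6.19 and 1.45, and at 160.7 kb with 2.93 and 6.29. Of these 4 bins, 3 had the higher score in Sertoli. Both Abca4 baits shared the gene-free bin chr3:121885303-121891538, with 5.40 and 2.54 from Abca4-201 and 5.99 and 3.47 from Abca4-207. They disagreed on a bin in the gene body, chr3:122099346-122104896, which scored 6.12 in pre-granulosa and 6.69 in Sertoli from Abca4-201 but 6.23 and 3.01 from Abca4-207.

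Srpk2, on chromosome 5, had 10 pre-granulosa and 3 Sertoli calls among 11 listed contacts, and all 11 contacted bins lay inside Srpk2 itself. The median score was 5.76 in pre-granulosa and 3.78 in Sertoli. The highest pre-granulosa scores were at adjoining bins 19.9 and 14.2 kb downstream of the bait, with 9.41 and 8.33 against Sertoli scores of 3.78 and 3.12. The longest run, 3 bins at chr5:23512747-23531528 near the 3′ end of the gene, scored 5.76, 5.64 and 5.04 in pre-granulosa and 5.31, 5.15 and 2.23 in Sertoli. The bin 8.74 kb upstream of the bait went the other way, at 2.64 and 5.17. None of the bins held the upstream start of Srpk2. At 50 kb or more from the bait, Srpk2 had 3 pre-granulosa and 2 Sertoli calls, an excess of 1 in place of 7.

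Olfml3, on chromosome 3, had no excess of calls. Its 2 baits gave 4 listed contacts, 2 called in pre-granulosa and 2 in Sertoli. The bait over its start, Olfml3-201 (chr3:103737736-103738111; its extended form also carries the name Gm10964), had 1 pre-granulosa and 2 Sertoli calls, all over 300 kb downstream. The contact that led to its choice, at chr3:103390149-103396047 and 344.8 kb away, scored 14.7 in pre-granulosa and 0.52 in Sertoli. The touching bin at 339.3 kb scored 4.49 and 5.70. At 304.9 kb, the bin chr3:103430346-103435660 scored 0 in pre-granulosa and 13.0 in Sertoli. Whether a score of 0 stands for a contact at background level or for one with no reads is not given in the sources used here. The promoter thus had a strong distal contact in each cell type, at bins that did not coincide. The other bait, Olfml3-204, had 1 contact at 65.3 kb, with 5.70 and 0.89.

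The original table held 7915 baits, and 23.6% of them had more pre-granulosa than Sertoli calls. Among the 647 baits with at least 10 listed contacts that share was 7.57%. By excess of pre-granulosa over Sertoli calls, Agbl3-204 stood first with 12, before Aplf-202 with 11, Abca4-201 with 8 and Srpk2-201 with 7. Ccdc73-204 tied with Srpk2-201 at 7 (14 and 7 calls) and is not among the 5 genes. Just below, at 6, came Zfp385b-203 with 9 and 3 calls, Edem1-201 with 6 and 0, and the X-linked Kdm6a-208 with 6 and 0. The next 17 baits were tied at 5, among them Ezh2-214 with 12 and 7 and Cald1-202, a neighbour of Agbl3, with 6 and 1. Kdm6a and Ezh2 encode a demethylase and a methyltransferase of the same histone residue, and Edem1 a protein that sends misfolded glycoproteins for degradation. Abca4-207 (excess of 2) stood at 156, Olfml3-204 (1) at 459 and Olfml3-201 (-1) at 2870, each the first place of all baits tied at its excess. An excess above 0 was held by 1869 baits.

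**Figure D2:**
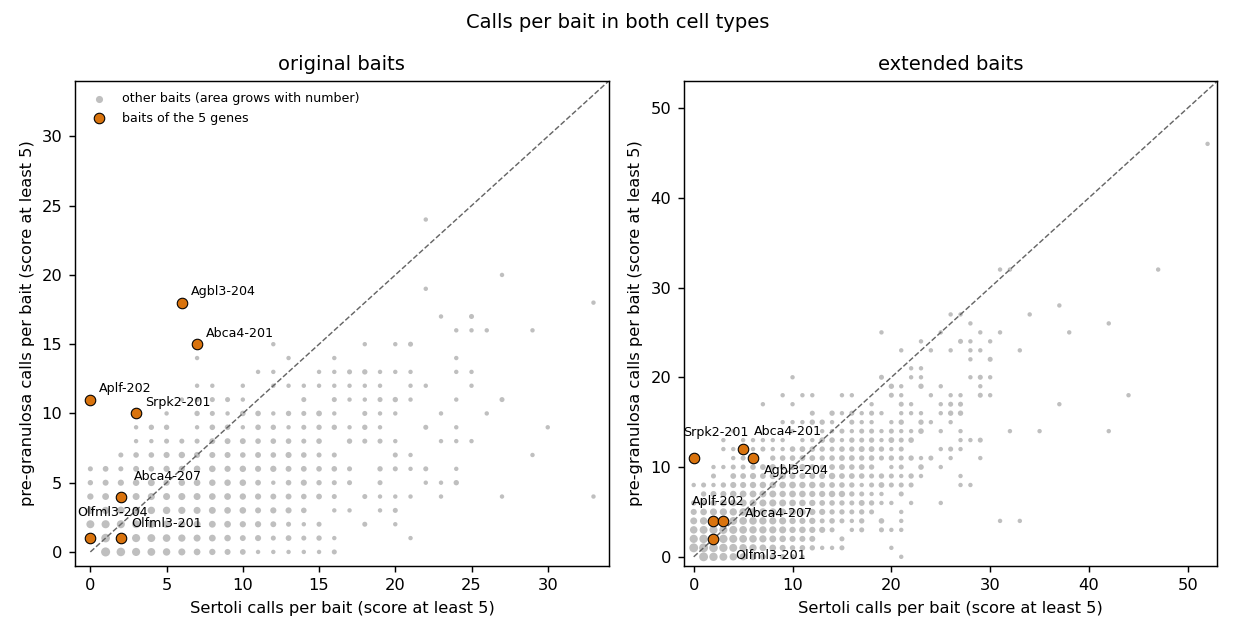
Number of called contacts per bait in Sertoli (x axis) and pre-granulosa (y axis) in both tables, with grey points for other baits, area growing with their number, and a dashed line of equal counts. Agbl3-204, Abca4-201, Aplf-202 and Srpk2-201 lie well above the line with the original baits, whereas with the extended baits Aplf-202 moves close to it at 4 and 2 calls.

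The calls were also counted by runs. The 60 pre-granulosa calls fell into 38 runs of touching bins, and 36 of the 60 lay in runs of at least 2 bins. The 20 Sertoli calls fell into 17 runs, with 5 calls in runs of at least 2. Over all 108 baits with at least 10 pre-granulosa calls, 58.8% of such calls lay in runs of at least 2 bins, close to the 36 of 60 here. With each run counted once, the excess of the 5 genes was 21, or 38 runs against 17, in place of 40. At a score of at least 7 it was 16 (21 and 5 calls), and at a score of at least 10 it was 3 (5 and 2 calls), with an excess remaining for Agbl3 and Aplf alone.

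The pre-granulosa calls of the 5 genes lay a median of 64.1 kb from the bait, against 25.1 kb for all 12360 pre-granulosa calls of the table. Their 20 Sertoli calls lay at a median of 94.8 kb, against 42.6 kb for all Sertoli calls, so both medians of these baits were above those of the table. Contacts within the bait's own gene were 27 of 68 (39.7%), against 30.6% over all baits whose gene was found in RefSeq. They were 11 of 11 for Srpk2, 10 of 22 for Abca4, 4 of 20 for Agbl3, 2 of 11 for Aplf and 0 of 4 for Olfml3. A further 21 contacts, on 19 distinct bins, reached bins with no RefSeq gene, 7 of them from Aplf and 7 from Abca4.

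The extended table was made from the same libraries with wider baits, so it is a second processing and not a second measurement. There, 56.3% of all cis interactions were called in pre-granulosa and 78% in Sertoli. With the 5 genes at either end, 55 of 69 interactions were called in pre-granulosa and 32 in Sertoli, an excess of 23 in place of 40. Of the 69, 37 were called in pre-granulosa only (22% of all), 14 in Sertoli only (43.7%) and 18 in both (34.3%). That count adds 17 interactions seen from another gene's bait, a view the original table lacks for these genes, and holds pairs listed from both ends more than once. In it Agbl3 had 16 pre-granulosa and 13 Sertoli calls (an excess of 3 in place of 12), Aplf 6 and 5 (1 in place of 11), Abca4 19 and 11, Srpk2 11 and 1, and Olfml3 3 and 2. As baits alone, the 5 genes had 44 pre-granulosa and 18 Sertoli calls among 52 contacts, an excess of 26, and 4 of the 5 had more pre-granulosa calls. Agbl3 had 11 and 6, Aplf 4 and 2, Abca4 16 and 8, Srpk2 11 and 0, and Olfml3 2 and 2.

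The highest scores of Srpk2 there were 12.6 in pre-granulosa against 4.03 in Sertoli and 12.1 against 3.36, at the same adjoining bins as with the original bait. By excess, Srpk2-201 stood first among the 11452 baits, of which 27.8% had more pre-granulosa calls. Abca4-201 stood at 12 with 12 and 5 calls, Agbl3-204 at 40 with 11 and 6, and Aplf-202 at 409 with 4 and 2. Tied baits share the first place of their tie. That of Aplf-202 was long, since the baits with an excess of 1 began at 1069. The Aplf contacts in Prokr1 were retained, at 10.5 against 3.38 and 8.75 against 2.00, but 5 of its 11 original contacts had no overlapping bin listed from its bait. Of those 5, that at 135.2 kb, with 5.37 in pre-granulosa and 1.66 in Sertoli, overlapped a bin listed from Arhgap25-203 with 1.90 and 5.10. The Agbl3 stretch became 5 touching bins at chr6:34870406-34896588, starting in Tmem140 and Cyren and ending in Wdr91, at 9.80, 9.44, 9.10, 12.6 and 6.40 in pre-granulosa and 6.60, 7.17, 2.36, 3.75 and 3.85 in Sertoli. Of the 3 Agbl3 contacts at or in Stra8, that at 154.5 kb was not listed, that at 137.5 kb overlapped a bin listed only from the Stra8 bait (8.92 in pre-granulosa and 9.72 in Sertoli), and that at 143.4 kb changed sides, to 5.22 in pre-granulosa and 5.59 in Sertoli. Both strong Olfml3 contacts stayed, at 14.7 against 0 and at 0 against 15.1, and the bin touching the first was now called in both cell types, at 9.76 and 6.52.

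Contact by contact, 50 of the 68 original interactions had an overlapping bin listed from the same gene's bait in the extended table, and 40 of the 50 (80%) kept the direction of the difference. Over all original interactions, 20618 of 29421 could be matched in this way and 87.0% of those kept it. Among the pre-granulosa-only interactions, the class of most of these contacts, 4018 of 6033 could be matched and 84.1% of those kept it. The 50 matches fell on 45 distinct extended bins, since bins of the tables can overlap in part. A further 3 overlapped a bin listed only with the gene as other end, where the Sertoli score was the higher. For Agbl3 both were called in both cell types, at 7.64 in pre-granulosa against 8.12 and at 8.92 against 9.72, while the Aplf contact was called in Sertoli only. With either end allowed, 40 of 53 (75.5%) kept the direction. All 10 matched contacts of Srpk2 kept it, as did 14 of 16 for Abca4, 4 of 6 for Aplf, 10 of 15 for Agbl3 and 2 of 3 for Olfml3. Of the 48 pre-granulosa-only contacts, 28 were pre-granulosa-only again, 3 were called in both cell types, 2 in Sertoli only and 15 were not listed from the bait, 3 of which were those seen from the other end. The 28 were 58.3% of the 48, against 41.7% for all 6033 pre-granulosa-only interactions. That part of the comparison shares its contrast with the choice of genes and supports nothing further. The clearest turn was the Agbl3 contact in Bpgm, from 7.10 in pre-granulosa and 0.64 in Sertoli to 2.26 and 5.53 at a bin shifted to the Bpgm start. Both bins overlap only in part, and whether the shift moved the scores was not tested.

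**Figure D3:**
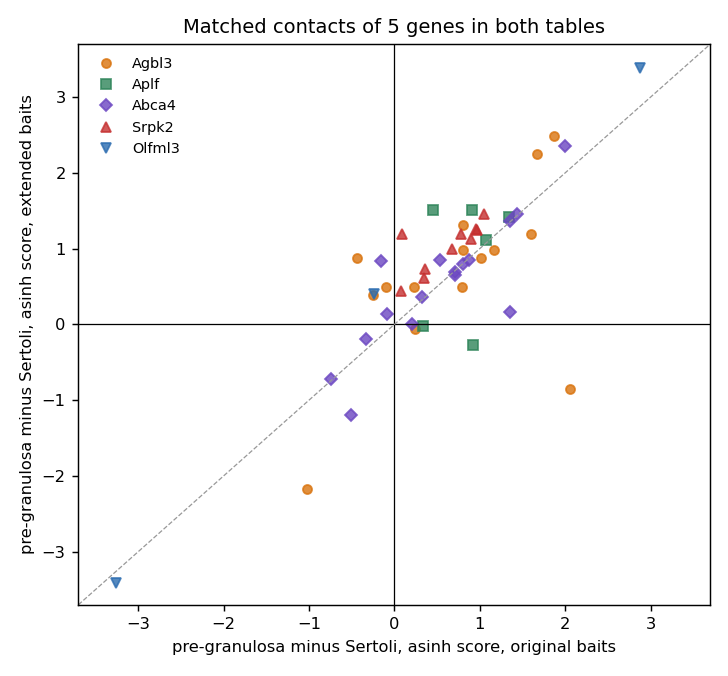
Difference of inverse hyperbolic sine scores (a log-like scale that is defined at 0), pre-granulosa minus Sertoli, for the 50 contacts matched with the gene as bait, with original baits on the x axis and extended baits on the y axis; the dashed line marks equal differences. 40 points lie in the quadrants of equal sign, and the Agbl3 contact in Bpgm lies farthest into the lower right.

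The extended table also listed the 5 genes as the other end of another promoter's bait, in 17 interactions. In that view 11 were called in pre-granulosa and 14 in Sertoli, and the pre-granulosa score was higher in 5 of 17. Over all extended interactions with a bait at the other end it was higher in 36.9%, and over all cis interactions in 35%. Agbl3 seen from its neighbours had the higher score in Sertoli in all 7 interactions. Among them, the bait of Cald1, the caldesmon gene, scored 7.81 in Sertoli and 2.33 in pre-granulosa, that of Wdr91 12.8 and 6.16, and that of Stra8 9.72 and 8.92. Seen from Arhgap25, the Aplf bin scored 8.43 in Sertoli and 0.98 in pre-granulosa. Seen from Prokr1 it scored 13.2 and 11.2, and seen from Rab43, a small GTPase gene on the upstream side, 4.21 and 6.81. Srpk2 was reached from Kmt2e, which encodes a chromatin-associated protein, with 5.90 in Sertoli and 0 in pre-granulosa. Olfml3 was reached from the kinase gene Hipk1 with 2.13 and 5.07. Abca4, reached from baits of Arhgap29 alone, had the higher score in pre-granulosa in 3 of 4.

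**Figure D4:**
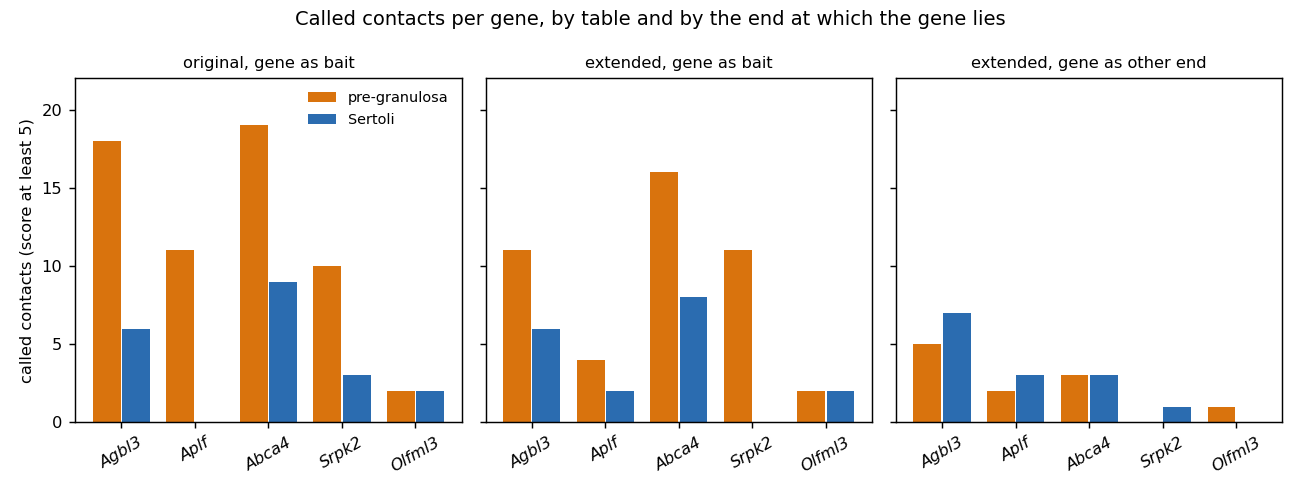
Called contacts per gene (score of at least 5) in pre-granulosa and Sertoli as bait in the original table, as bait in the extended table and as the other end in the extended table. The pre-granulosa bars are taller for Agbl3, Aplf, Abca4 and Srpk2 in the panels where these are baits, whereas as other ends the Sertoli bars are taller for Agbl3 (7 and 5), Aplf (3 and 2) and Srpk2 (1 and 0).

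There were 6 pairs listed from both ends, which gives a second reading of an interaction from the opposite bait. In 5 of the 6 both readings had the same direction, against 8723 of 9620 such pairs (90.7%) over the table. The exception was Agbl3 with Cyren, a gene for a regulator of end joining, with 9.44 in pre-granulosa and 7.17 in Sertoli from the Agbl3 bait but 9.93 and 11.3 from the Cyren bait. Agbl3 with Wdr91 scored 4.50 and 7.24 from the Agbl3 bait and 6.16 and 12.8 from the Wdr91 bait. Abca4-201 with Arhgap29-202 scored 0.54 and 5.13 from Abca4 and 0.46 and 5.61 from Arhgap29. Abca4-207 with Arhgap29-204 was higher in pre-granulosa in both readings, at 9.48 against 8.09 and 8.31 against 6.37.

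Around these genes, the promoters of other genes had fewer pre-granulosa than Sertoli calls in sum. Within 500 kb of the 5 genes, the original table held 41 baits of other genes with 78 pre-granulosa and 105 Sertoli calls. Of these baits, 12 (29.3%) had more pre-granulosa calls, 22 had more Sertoli calls and 7 had equal numbers, beside 23.6% with more pre-granulosa calls over all baits. Of their 144 listed contacts, 54.2% were called in pre-granulosa and 72.9% in Sertoli, beside 42% and 79.5% over the table, so the neighbours leaned less to Sertoli than the table as a whole. Whether that lean exceeds what neighbouring baits vary by was not tested. Around Srpk2 both neighbouring baits had fewer pre-granulosa than Sertoli calls, 5 and 13 for Kmt2e-206 and 0 and 3 for Rint1-205. Around Aplf the calls summed to 22 and 30 over 12 baits, with Hmces-201 at 3 and 7. Around Agbl3 they summed to 10 and 16 over 9 baits, with extremes of 6 and 1 for Cald1-202 and 0 and 5 for Akr1b8-201. Around Olfml3 they summed to 13 and 18 over 8 baits, with 3 and 1 for Phtf1-204 and 2 and 6 for Trim33-205. Around Abca4 they summed to 28 and 25 over 10 baits, among them Arhgap29-204 at 11 and 8 and Bcar3-208 at 0 and 2. These directions depended on the setting: within 250 kb the neighbours of Agbl3 had 7 and 3 calls and those of Olfml3 9 and 9. With extended baits within 500 kb, those of Abca4 had 34 and 36 and those of Olfml3 25 and 25.

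Some bins were reached both by these genes and by another gene's bait. In the original table there were 24 such pairs over 14 bins, 19 of the pairs from Abca4. The pre-granulosa score was higher in 18 of 24 from the baits of the 5 genes and in 9 of 24 from the other baits, and both baits had the same direction in 11. Over the whole table the pre-granulosa score was higher in 28.4%, and the 18 of 24 follow from how the genes were chosen. With extended baits the counts were 17, 9 and 10 of 24. The bin at chr5:23651876-23657078 inside Srpk2 scored 6.33 in pre-granulosa and 3.16 in Sertoli from Srpk2-201 but 0.74 and 5.21 from Kmt2e-206. The Stra8 bin at chr6:34932155-34938092 scored 6.19 and 1.94 from Agbl3 but 1.12 and 6.35 from Slc23a4-205. Within Abca4, the bin chr3:122109969-122115013 scored 5.19 and 2.11 from Abca4-201, 5.39 and 8.00 from Arhgap29-204 and 5.51 and 7.89 from Arhgap29-202. The far upstream bin of Abca4 at chr3:121885303-121891538 was higher in pre-granulosa from Arhgap29-204 as well, at 8.85 and 5.27. The Sertoli bin of Olfml3, with 0 in pre-granulosa, was also contacted by Atg4a-ps-201 at 5.44 in Sertoli and 0 in pre-granulosa.

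Genes of the same families were read in the same way. Lists of cytosolic carboxypeptidases, end-joining and break-repair factors, ABCA transporters, SR protein kinases and olfactomedin proteins held 51 other genes, of which 20 had an original bait. Of the 20, 1 had more pre-granulosa calls (23.7% of all 5784 genes did), 18 had more Sertoli calls and 1 had equal numbers, with 36 pre-granulosa and 77 Sertoli calls in all. The exception was Xrcc1, a scaffold of single-strand break repair, with 3 and 1 calls. Agbl5, the deglutamylase that removes branch-point glutamates, had 5 and 8. The lipid transporter gene Abca2 had 5 and 8, the splicing kinase gene Clk3 had 2 and 5, and Olfm1 had 1 and 6. With the extended baits 24 genes were covered, of which 3 (Lig4, Nhej1 and Olfml1) had more pre-granulosa calls (28.4% of 8716 genes did), 15 more Sertoli calls and 6 equal numbers.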

How the data were processed

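The deposited tables hold CHiCAGO-type interaction scores that the authors computed, with 1 column per cell type. Scores are not counts, and how the authors pooled the libraries is not given in the sources used here. The build is mm10 per the submitters' processing notes. In 968 of 968 cases, an original bait starting in a RefSeq GRCm38.p6 promoter window had GATC within 4 bases of that start.

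Interactions were read with pandas 2.3.3 (Python 3.11.15, numpy 2.4.6) and plotted with matplotlib 3.10.9. Bait and other-end names were split at commas and stripped of the transcript number. A contact was called at a score of at least 5. Excess is pre-granulosa minus Sertoli calls. Bins whose ends meet form a run. Distances run between midpoints. Runs, excess and bin matching were checked on simulated data.

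The members and gene lists were chosen with earlier results of these data known. Named beside the members are genes at their other ends, baits within 500 kb that reach the same bin or have the largest excess either way, the 5 baits next in excess, and related genes with a call, of which 1 is not reported here. Alternatives were the extended table, other thresholds and distance limits.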

Additional observations from a re-analysis of the deposited data

How the results depend on the processing

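Of the 9 alternatives run for each gene, Agbl3 and Aplf kept an excess of pre-granulosa calls in 9, and Abca4 and Srpk2 in 8, and no excess changed sign. The genes were chosen on this difference, and the alternatives without extended baits re-cut the same original scores. Aplf had no Sertoli call at a score of 5 there, so its excess could not change sign in them. These counts of settings support nothing further. The lowest excess was 1 for Agbl3 (12 with the original baits) and 0 for Abca4 (10) and Srpk2 (7), all at a score of 10, where neither Abca4 nor Srpk2 had a call. For Aplf (11) it was 1, with extended baits at either end, where Agbl3 had 3. For Srpk2 it was 1 at 50 kb or more. Olfml3, at 0 with the original baits (2 and 2 calls), had an excess of 1 in 4 of the alternatives. Apart from the extended baits, these gave 2 and 1 calls, so the excess came from a dropped Sertoli call. The summed excess of 40 became 23 with extended baits and the genes at either end, 26 with extended baits and the genes as baits only, 16 at a score of 7, 3 at a score of 10, 24 at 50 kb or more, 21 with touching bins counted once, and 23 where the other score had to be under 3. It was 50 with thresholds set to give each cell type as many calls as the other and 41 without scores of 0. The number of genes with an excess was 4. It was 5 with extended baits at either end, with equal numbers of calls, where the other score had to be under 3 and without scores of 0, and 2 at a score of 10. The share of contacts called in pre-granulosa only was 70.6% (48 of 68), 53.6% with extended baits at either end, 65.4% with the genes as baits only, 79.2% (19 of 24) at a score of 7 and 39.7% where the Sertoli score had to be under 3. Stricter thresholds, the distance limit, the counting of runs and the limits on the other score or on scores of 0 can only lower the counts. Equal numbers of calls raised the Sertoli threshold alone, from 60 and 20 calls to 60 and 10, so that excess could not fall. For the shifts with extended baits the cause was not tested. Neighbouring baits had an excess of -27 within 500 kb, -18 with extended baits and -7 within 250 kb. The extended and 250 kb neighbour settings and the bait-only count were chosen after seeing the data. No paired analysis was possible because all libraries of a cell type were pooled into 1 score, so no library could be left out. Depth is unknown, and no interval for a score can be given.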
